A study of Homo sapiens with 12 samples.

Results

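CLDN1, CLDN4, CLDN7, CLDN12, OCLN, MARVELD2, F11R, TJP1 and CGN are 9 genes of the tight junction, the belt of contacts that seals epithelial cells to each other near their apical side. They were taken by symbol from a table of read counts over 25382 gene symbols. All 9 were in the table, and all 9 passed the low-count filter that left 15437 genes for testing. Claudins build the sealing strands of the junction, joined by occludin (OCLN) and tricellulin (MARVELD2). JAM-A (F11R) is an adhesion molecule of the same belt, and the cytoplasmic proteins ZO-1 (TJP1) and cingulin (CGN) tie the strands to actin and myosin. In stratified squamous epithelium claudin-1 is needed for the barrier, and carcinoma cells that take on mesenchymal traits are known to lower several junction genes through repressors of the SNAI and ZEB families.

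RNA was sequenced from Cal27, an established line of human tongue squamous carcinoma whose labels give it as epithelial and of WT genotype. Cells were conditioned for 5 days and then replated for 1 day, and every condition ended on collagen-coated polyacrylamide gel of 0.48 kPa, called soft. Stiff-to-soft cells were conditioned on a stiff gel of 20 kPa. LPA-to-FAKi cells were conditioned on soft gel with lysophosphatidic acid (LPA), a lipid that acts through cell surface receptors and raises contractility, and spent the replating day with focal adhesion kinase (FAK) inhibited. LPA-to-soft cells were conditioned in the same way and replated with neither LPA nor inhibitor. Soft-to-soft cells stayed on soft gel and had no treatment. The sources used here do not name the FAK inhibitor or give its dose or that of LPA. Each condition had 3 libraries, numbered 1 to 3. The study set a learned class of 6 libraries, stiff-to-soft and LPA-to-soft, against a class of 6 that had not learned or had forgotten, LPA-to-FAKi and soft-to-soft, to find transcripts that go with mechanical memory. The labels do not say whether replicates were separate cultures, so p-values reflect only how far these samples differ from each other, and that spread may be technical.

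Libraries held 62953957 to 122311183 counts, and the 9 genes together took 0.144% to 0.247% of them. Soft-to-soft replicates 1 and 2 stood apart in their low counts. Of counts between 1 and 19, 42.9% and 42.2% were even in these libraries, against 96.8% to 97.8% in the other 10. What makes the difference was not tested, and values against soft-to-soft without these libraries stand beside the main ones, by gene or by count. Squamous epithelial markers (10 of 10 tested, KRT5 and TP63 among them) summed to 8740 to 16600 CPM over the 12 libraries. Fibroblast markers (4 of 8 tested) summed to 14.6 to 36.4 CPM, and endothelial markers (2 of 6 tested) to 5.74 to 37.8 CPM.

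Levels below are CPM, counts scaled to a common library total with TMM factors, and differences are on the log2 scale with their standard error (SE). A gene is called where the adjusted p of edgeR's quasi-likelihood test, over all 15437 genes, is under 0.05. By this test no member was called in any of the 6 comparisons, with or without replicate number as a block. DESeq2 called none without the block and CGN in 2 comparisons with it. CGN and OCLN held the largest positive differences between conditions, and CLDN1, CLDN7, CLDN12, TJP1 and F11R were called different between replicate numbers. Means are given ± SD over 3 libraries.

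Promoter windows of 300 bases, from 250 before to 50 after a transcript start, were read for 8 of the 9 members from RefSeq on GRCh38.p14, 13 windows in all. They are shown for OCLN and CGN, the members that varied most by condition, and for CLDN7, 1 of whose 2 windows held the most matches to the E-box CACCTG, which reads CAGGTG on the other strand. That motif is the one bound by SNAI and ZEB repressors, and SNAI2 is among the genes called below. Capitals mark the matches, and each sequence runs 5′ to 3′ on the gene's strand. The OCLN windows, which overlap, are chr5:69492297-69492596 and chr5:69492540-69492839 (plus strand), the CGN window is chr1:151511137-151511436 (plus strand) and the CLDN7 window shown is chr17:7262429-7262728 (minus strand).
OCLN, upstream start: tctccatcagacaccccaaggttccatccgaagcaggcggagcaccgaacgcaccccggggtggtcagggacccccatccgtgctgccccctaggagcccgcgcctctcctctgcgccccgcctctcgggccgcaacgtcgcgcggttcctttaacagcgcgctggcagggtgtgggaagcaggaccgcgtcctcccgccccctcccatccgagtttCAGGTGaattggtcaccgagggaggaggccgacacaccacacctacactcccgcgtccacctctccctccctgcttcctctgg
OCLN, downstream start: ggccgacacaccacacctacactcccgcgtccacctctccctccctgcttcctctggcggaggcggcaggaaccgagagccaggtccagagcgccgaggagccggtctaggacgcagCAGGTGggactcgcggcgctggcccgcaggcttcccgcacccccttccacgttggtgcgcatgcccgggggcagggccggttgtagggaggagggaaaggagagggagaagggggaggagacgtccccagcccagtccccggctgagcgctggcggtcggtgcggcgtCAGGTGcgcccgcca
CGN: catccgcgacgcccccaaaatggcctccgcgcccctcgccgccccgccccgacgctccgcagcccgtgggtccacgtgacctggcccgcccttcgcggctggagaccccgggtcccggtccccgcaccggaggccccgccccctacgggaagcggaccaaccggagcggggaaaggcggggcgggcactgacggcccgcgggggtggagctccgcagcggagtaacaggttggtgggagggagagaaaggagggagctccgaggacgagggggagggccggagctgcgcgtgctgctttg
CLDN7: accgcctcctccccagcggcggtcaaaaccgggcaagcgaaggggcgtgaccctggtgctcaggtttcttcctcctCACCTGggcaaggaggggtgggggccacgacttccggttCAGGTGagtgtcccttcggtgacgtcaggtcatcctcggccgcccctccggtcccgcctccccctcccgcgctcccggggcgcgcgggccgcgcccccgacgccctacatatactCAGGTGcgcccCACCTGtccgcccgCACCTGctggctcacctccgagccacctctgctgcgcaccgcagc
The OCLN windows held 1 and 2 matches, the CLDN7 window shown held 5, and the CGN window held 0. The other CLDN7 window, chr17:7263164-7263463 (minus strand), held 0. Of the 13 windows, 4 held a match, against 20.6% of 35116 promoter windows genome-wide. A match is a run of letters and not a shown binding site. The palindrome AACCGGTT of Grainyhead-like factors was in 0 of the 13 windows (0.134% of all windows), and GGAATG or CATTCC of TEAD factors was in 0 (14% of all windows).

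CLDN1, the main sealing claudin of squamous epithelium, had the highest level per kilobase of the 9 genes. It stood at 740.4, 749 and 1320 CPM in stiff-to-soft libraries 1, 2 and 3. In LPA-to-FAKi it stood at 667, 676 and 1134 CPM, and in LPA-to-soft at 1135, 733 and 1216 CPM. In soft-to-soft it stood at 977, 479.7 and 1346 CPM. Library 3 was highest in every condition, library 2 of soft-to-soft was lowest, and the conditions overlapped. Means were 936 ± 332 CPM in stiff-to-soft, 826 ± 267 CPM in LPA-to-FAKi, 1028 ± 258 CPM in LPA-to-soft and 934 ± 435 CPM in soft-to-soft (SD, n = 3 each). The widest difference was LPA-to-FAKi against LPA-to-soft, at -0.32 ± 0.376 (adjusted p = 0.901) without the block and -0.33 ± 0.181 (adjusted p = 0.308) with it. It had the same sign in numbers 1, 2 and 3, at -0.77, -0.12 and -0.10, and number 1 gave most of it.

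CLDN4, a claudin known for lowering sodium permeability in cultured kidney cells, had 428, 472 and 481 CPM in stiff-to-soft libraries 1, 2 and 3. It had 547, 508 and 598 CPM in LPA-to-FAKi, 552, 414 and 519 CPM in LPA-to-soft, and 735, 390.0 and 615 CPM in soft-to-soft. The soft-to-soft libraries held both the highest and the lowest value of the 12. The learned class had a lower mean than the class that had not learned, by -0.24 ± 0.131 (adjusted p = 1), and the values of the classes overlapped. By number the class difference was -0.38, -0.01 and -0.28. Against soft-to-soft, stiff-to-soft differed by -0.33 ± 0.2 (adjusted p = 1), with -0.78, 0.27 and -0.35 in numbers 1, 2 and 3. Number 2 thus had the opposite sign.

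CLDN7, a claudin of epithelia that also lines the lateral membrane, had 50.5, 44.1 and 43.2 CPM in stiff-to-soft libraries 1, 2 and 3, and 72.8, 38.8 and 42.0 CPM in LPA-to-FAKi. It had 70.3, 38.8 and 39.8 CPM in LPA-to-soft and 70.8, 27.7 and 41.6 CPM in soft-to-soft. Library 1 was highest in all 4 conditions, and of the libraries numbered 1 that of stiff-to-soft was lowest. Without the block its differences between conditions ran from -0.11 ± 0.347 (stiff-to-soft against LPA-to-soft) to 0.13 ± 0.347 (LPA-to-FAKi against soft-to-soft), all within their SE. With the block the latter was 0.161 ± 0.159 (adjusted p = 0.651), just above its SE, and the others were within theirs. CLDN12, a claudin without the PDZ-binding tail that ties most claudins to ZO proteins, averaged 79.7 ± 4.28 CPM in stiff-to-soft, 77.9 ± 8.5 CPM in LPA-to-FAKi, 80.7 ± 10.1 CPM in LPA-to-soft and 72.8 ± 9.33 CPM in soft-to-soft. Library 2 of soft-to-soft was its lowest, at 62.1 CPM. In the annotation, CLDN12 exons share bases on the same strand with GTPBP10 (5.15% of the CLDN12 exon bases) and CDK14 (2.98%), so its counts carry that uncertainty. AC003688.1, a gene model not among the symbols of the count table, shares 10.8% of the CLDN7 exon bases on the same strand. CLDN7 also overlaps ELP5 on the opposite strand over 1.52%, and the strand setting of the counting is not given.

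OCLN, the gene of occludin, had 17.3, 25.4 and 22.0 CPM in stiff-to-soft libraries 1, 2 and 3. It had 21.1, 25.2 and 16.6 CPM in LPA-to-FAKi, 15.7, 20.3 and 18.3 CPM in LPA-to-soft, and 16.7, 15.6 and 14.4 CPM in soft-to-soft. All 3 stiff-to-soft libraries lay above all 3 soft-to-soft libraries, while the LPA-to-FAKi and LPA-to-soft ranges met that of soft-to-soft. Means were 21.6 ± 4.09 CPM in stiff-to-soft, 21 ± 4.31 CPM in LPA-to-FAKi, 18.1 ± 2.29 CPM in LPA-to-soft and 15.6 ± 1.13 CPM in soft-to-soft. Against soft-to-soft, stiff-to-soft was higher in the mean by 0.47 ± 0.177, with an adjusted p of 1 and, with the replicate block, of 0.204. By number that difference was 0.05, 0.70 and 0.60. LPA-to-FAKi against soft-to-soft gave 0.43 ± 0.177 (adjusted p = 0.999, and 0.176 with the block), with 0.34, 0.69 and 0.20 by number and 0.265 to 0.575 with a library left out. Without soft-to-soft libraries 1 and 2 the block fit gave 0.48 ± 0.191 for stiff-to-soft (adjusted p = 0.929) and 0.45 ± 0.194 for LPA-to-FAKi (adjusted p = 0.584). OCLN was not called in either.

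MARVELD2, the gene of tricellulin, which sits where 3 cells meet, averaged 17.3 ± 2.52 CPM in stiff-to-soft, 18.9 ± 2.5 CPM in LPA-to-FAKi, 17.9 ± 1.19 CPM in LPA-to-soft and 17.0 ± 0.725 CPM in soft-to-soft. Its 12 values overlapped between all conditions, and its widest difference was 0.16 ± 0.13 (LPA-to-FAKi against soft-to-soft, adjusted p = 0.999). F11R, the gene of JAM-A, varied least between conditions. Its means were 300.3 ± 11.4 CPM in stiff-to-soft, 295 ± 22.2 CPM in LPA-to-FAKi, 308 ± 30.7 CPM in LPA-to-soft and 313 ± 35.7 CPM in soft-to-soft. Without the block, differences of F11R between conditions lay between -0.09 ± 0.114 and -0.03 ± 0.114, each within its SE. In the block fit LPA-to-FAKi differed by -0.086 ± 0.06 from soft-to-soft (adjusted p = 0.501). From LPA-to-soft it differed by -0.061 ± 0.06 (adjusted p = 0.583). Both were larger than their SE, and the other block differences of F11R between conditions were not. A gene model that shares 36.6% of the F11R exon bases, AL591806.3, is not among the symbols of the count table.

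TJP1, the gene of the scaffold ZO-1, had 120.1, 123 and 98.0 CPM in stiff-to-soft libraries 1, 2 and 3, and 133, 136 and 91.9 CPM in LPA-to-FAKi. It had 103, 139.6 and 97.2 CPM in LPA-to-soft and 102, 119 and 82.4 CPM in soft-to-soft. Library 3 was lowest in all 4 conditions, and within each number soft-to-soft had the lowest value. LPA-to-FAKi differed from soft-to-soft by 0.25 ± 0.194 without the block (adjusted p = 0.999) and by 0.24 ± 0.085 with it (adjusted p = 0.196), with 0.38, 0.19 and 0.16 by number and 0.117 to 0.413 with a library left out. Stiff-to-soft and LPA-to-soft differed from soft-to-soft by 0.18 ± 0.085 and 0.16 ± 0.085 in the block fit, with adjusted p of 0.526 and 0.682. These 3 comparisons share the soft-to-soft libraries.

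CGN, the gene of cingulin, which binds ZO-1, actin and myosin, had the largest share of its spread between conditions. It had 66.8, 72.3 and 70.9 CPM in stiff-to-soft libraries 1, 2 and 3. In LPA-to-FAKi it had 89.5, 83.6 and 63.2 CPM, in LPA-to-soft 59.8, 60.7 and 57.3 CPM, and in soft-to-soft 65.7, 44.0 and 54.7 CPM. The stiff-to-soft libraries lay above all LPA-to-soft and all soft-to-soft libraries, and the LPA-to-FAKi libraries lay above all LPA-to-soft libraries. LPA-to-FAKi library 3, at 63.2 CPM, lay below soft-to-soft library 1, at 65.7 CPM. Means were 70.01 ± 2.84 CPM in stiff-to-soft, 78.7 ± 13.8 CPM in LPA-to-FAKi, 59.3 ± 1.77 CPM in LPA-to-soft and 54.8 ± 10.9 CPM in soft-to-soft.

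LPA-to-FAKi exceeded soft-to-soft in mean CGN by 0.52 ± 0.151, with 0.44, 0.93 and 0.21 in numbers 1, 2 and 3. The adjusted p was 0.999 without the block and 0.101 with it. DESeq2 with the block, which called 4.65% of the genes it tested here, called CGN higher, at 0.52 ± 0.139 (adjusted p = 0.00849). LPA-to-FAKi against LPA-to-soft, which sets the inhibitor against its absence after the same conditioning, gave 0.41 ± 0.151 for CGN (adjusted p = 0.839), with 0.58, 0.46 and 0.14 by number. With the block it gave 0.40 ± 0.13 (adjusted p = 0.118), and DESeq2 with the block, which called 9.44% of its genes, called it higher (adjusted p = 0.0447). Stiff-to-soft differed from soft-to-soft by 0.35 ± 0.151 (adjusted p = 1, and 0.31 with the block; 0.189 to 0.505 with a library left out) and from LPA-to-soft by 0.24 ± 0.15 (adjusted p = 1, and 0.572 with the block). Learned against not learned gave -0.05 ± 0.148 for CGN (adjusted p = 1), and the conditions with its higher means, stiff-to-soft and LPA-to-FAKi, lie in different classes.

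Beside these CGN values, summed leukocyte markers were 17.3 to 22.6 CPM in stiff-to-soft and 21.4 to 50.3 CPM in LPA-to-FAKi, against 14.9 to 22.6 CPM in LPA-to-soft and 16.8 to 22.5 CPM in soft-to-soft. Of the 8 leukocyte markers 4 were tested. Against soft-to-soft, LPA-to-FAKi differed by 1.14 for CD68, which averaged 17 CPM, by 0.98 for CSF1R, by -0.22 for CD14 and by -0.56 for ITGAM, and none of them was called. PTPRC was under 1 CPM in every library, and CD3E was at 0 in all 12 libraries. Other marker lists also moved in LPA-to-FAKi against soft-to-soft. The median difference was 0.38 for the 4 leukocyte markers tested, -0.75 for the 4 fibroblast and -0.67 for the 2 endothelial markers tested. It was -0.02 for the squamous markers, and no marker was called. The part of these marker values in the CGN values was not tested. In bulk RNA, fewer cells of a type and less RNA per cell cannot be told apart. Without soft-to-soft libraries 1 and 2, CGN in the block fit differed by 0.41 ± 0.156 between LPA-to-FAKi and soft-to-soft (adjusted p = 0.562) and by 0.25 ± 0.152 between stiff-to-soft and soft-to-soft (adjusted p = 1).

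**Figure D1:**
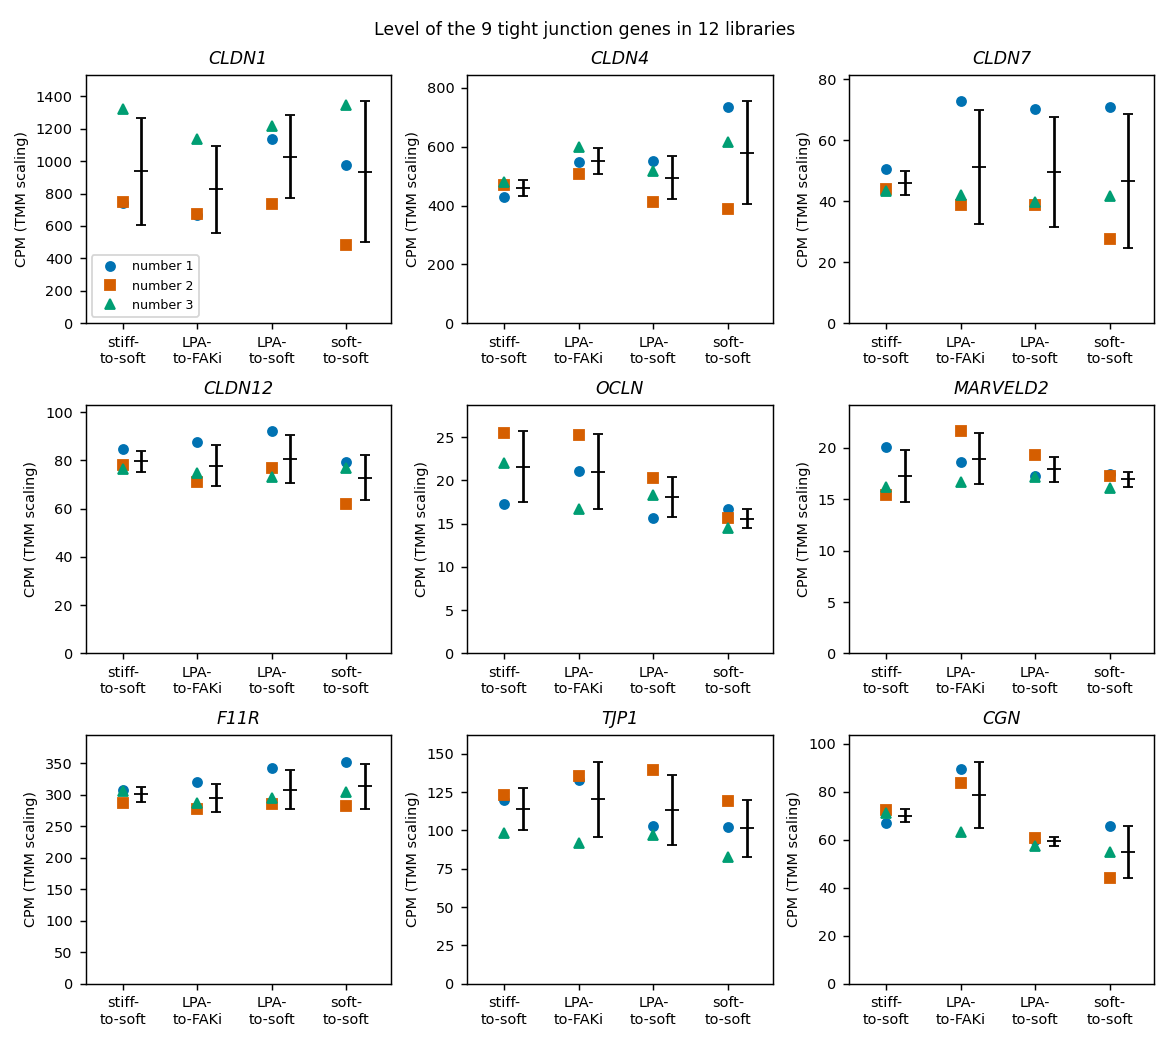
Level of each of the 9 tight junction genes in the 12 libraries, with CPM after TMM scaling on a linear vertical axis from 0 and the 4 conditions on the horizontal axis. Symbols mark replicate numbers 1 to 3, and bars give the mean ± SD of 3 libraries. CGN in stiff-to-soft (66.8 to 72.3 CPM) lies above soft-to-soft (44.0 to 65.7 CPM), while library 3 of CLDN1 and library 1 of CLDN7 are the highest in every condition.

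Without soft-to-soft libraries 1 and 2, 0 of the 9 members were called in the 3 comparisons with soft-to-soft, with or without the block, and the block fit called 0 of 16307 genes with stiff-to-soft and also 0 with LPA-to-FAKi. That fit gave for stiff-to-soft -0.34 ± 0.132 for CLDN4, -0.05 ± 0.186 for CLDN7 and 0.19 ± 0.146 for TJP1. It gave -0.049 ± 0.095 for F11R and -0.021 ± 0.181 for MARVELD2 in the same comparison. For LPA-to-FAKi it gave 0.26 ± 0.148 for TJP1 (adjusted p = 0.682) and 0.11 ± 0.183 for MARVELD2.

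Set against soft-to-soft, stiff-to-soft had 6 of 9 members with a positive difference and 3 with a negative one, between -0.33 (CLDN4) and 0.47 (OCLN). No member was called, and edgeR called 0 of 15437 genes without the block (0%) and 90 (0.583%) with it. That block count ran from 7 (without stiff-to-soft library 3) to 228 (without LPA-to-FAKi library 1), and was 13 without stiff-to-soft library 2 and 11 without soft-to-soft library 3. In either fit 2 members, OCLN and CGN, had an unadjusted p under 0.05, where 1.94% of genes had one without the block and 10.2% with it. Libraries of OCLN and CGN did not overlap between the conditions, 22.2% of members, and of all genes 2.16% lay wholly above soft-to-soft and 2.19% wholly below. OCLN, TJP1 and CGN were higher in all 3 numbers, 33.3% of members and 14.6% of all genes. CGN differed by 0.02, 0.72 and 0.38 in numbers 1, 2 and 3, and TJP1 by 0.23, 0.05 and 0.25. The median difference of the members was 0.03, and of all genes -0.01.

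LPA-to-soft against soft-to-soft had 7 members positive and 2 negative, between -0.23 (CLDN4) and 0.22 (OCLN). DESeq2 also called none, edgeR called 0 of all genes (0%) in both fits, and 0 members had an unadjusted p under 0.05, against 1.37% of all genes without the block and 7.97% with it. Members did not separate from soft-to-soft in any case, where 2.64% of genes lay wholly above and 2.18% wholly below. TJP1 was the 1 member (11.1%) higher in every number, where 15.8% of genes were, by 0.01, 0.23 and 0.24.

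LPA-to-FAKi against soft-to-soft had 6 members positive and 3 negative, between -0.18 (CLDN1) and 0.52 (CGN), with a median of 0.13 against 0.00 for all genes. edgeR called no member, and called 0% of genes without the block and 0.564% with it, a count of 87 that ran from 0 (without soft-to-soft library 3) to 307 (without soft-to-soft library 2). An unadjusted p under 0.05 was found for 2 members without the block and 3 with it (OCLN, TJP1 and CGN), where 3.55% and 16.6% of genes had one. CLDN7, OCLN, TJP1, CGN and MARVELD2 were higher in all 3 numbers, 55.6% of members and 17.4% of genes. For CLDN7 and MARVELD2 number 2 gave most of it. CLDN7 differed by 0.04, 0.48 and 0.01 in numbers 1, 2 and 3, and MARVELD2 by 0.09, 0.32 and 0.04. Without soft-to-soft libraries 1 and 2, CLDN7 differed by 0.043 in the block fit. F11R was lower in all 3, at -0.14, -0.03 and -0.09, where 17.7% of genes were. No member's libraries separated fully, where 3.04% of genes lay wholly above soft-to-soft and 3.12% wholly below.

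LPA-to-FAKi against LPA-to-soft had 6 members positive and 3 negative, between -0.32 (CLDN1) and 0.41 (CGN). edgeR called 0 members and 0% of genes in both fits, and 1 member, CGN, had an unadjusted p under 0.05, where 5.43% of genes had one without the block and 22.3% with it. CGN was also the 1 member (11.1%) whose libraries lay wholly above, where 5.95% of genes did and 5.4% lay wholly below. CLDN7 and CGN were higher in all 3 numbers, and CLDN1 and F11R were lower, 22.2% of members each way, near the 22.9% and 22.2% of all genes. CLDN7 differences were 0.08 at most.

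Stiff-to-soft against LPA-to-soft, the learned conditions set side by side, had 3 members positive and 6 negative, between -0.13 (CLDN1) and 0.25 (OCLN). edgeR called no member, and called 0% of genes without the block and 0.00648% with it. In either fit 0 members had an unadjusted p under 0.05, against 1.39% of all genes without the block and 9.42% with it. OCLN was higher by 0.14, 0.33 and 0.26 in numbers 1, 2 and 3, and CGN by 0.16, 0.25 and 0.31. That was 22.2% of members, near the 18.1% of all genes higher in all 3 numbers. CGN libraries did not overlap, 11.1% of members, where 2.66% of genes lay wholly above and 3.19% wholly below.

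Learned against not learned had 5 members positive and 4 negative, between -0.24 (CLDN4) and 0.16 (CLDN1), with a median of 0.00. edgeR called no member, 0% of genes without the block and 0.00648% with it. An unadjusted p under 0.05 was found for 0 members without the block and for CLDN4 with it, at -0.23 ± 0.1 (adjusted p = 0.476), where 2.89% and 9.94% of genes had one. CLDN1 was higher in all 3 numbers, at 0.18, 0.38 and 0.04, and CLDN4 was lower in all 3. That was 11.1% of members each way, where 19.1% of all genes were higher and 20.8% were lower. The 6 learned libraries overlapped the other 6 for every member, where 0.0972% of all genes lay wholly above and 0.0389% wholly below.

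**Figure D2:**
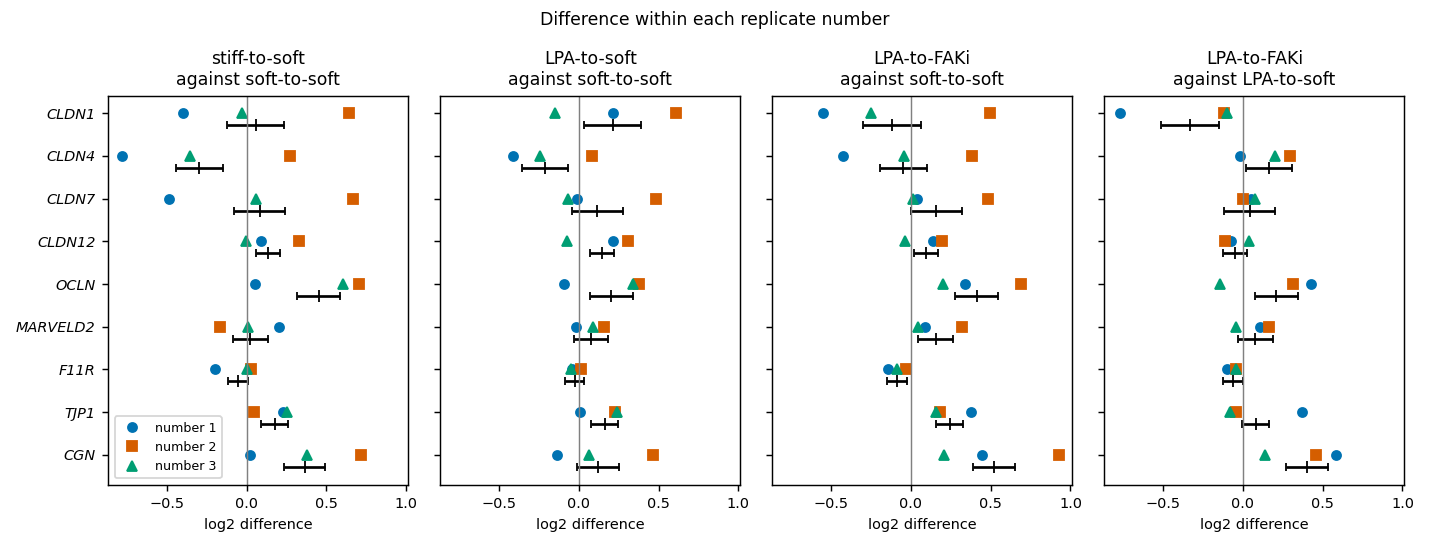
Difference in log2 CPM of each member within each replicate number for 4 comparisons, with symbols for numbers 1 to 3 and the block fit's estimate ± SE in black. CGN lies right of 0 in all 3 numbers in 3 of the 4 panels, and CLDN1 spreads over -0.40 to 0.64 for stiff-to-soft against soft-to-soft.

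Replicate number carried more of the members' spread than condition did for 7 of the 9 genes, the exceptions being OCLN and CGN. With condition in the model, edgeR called 5 of 9 members (55.6%) different between numbers, near the 52.3% of all genes. CLDN7 averaged 66.1 ± 10.5 CPM in number 1, 37.4 ± 6.88 CPM in number 2 and 41.7 ± 1.43 CPM in number 3 (SD, n = 4 each; adjusted p = 0.00122). CLDN1 averaged 879.9 ± 215, 659 ± 124 and 1254 ± 97.8 CPM in numbers 1, 2 and 3 (adjusted p = 0.0019). TJP1 had its highest mean in number 2, at 129 ± 9.74 CPM, against 115 ± 14.9 CPM in number 1 and 92.4 ± 7.21 CPM in number 3 (adjusted p = 0.00106). CLDN12 (adjusted p = 0.0157) and F11R (adjusted p = 0.011) were highest in number 1, at 85.9 ± 5.31 and 331 ± 20.5 CPM. CLDN1 and TJP1 thus ran in opposite order over numbers 2 and 3. CLDN4, OCLN, CGN and MARVELD2 were not called, with adjusted p of 0.0885, 0.101, 0.344 and 0.29.

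Of the sum of squares of log2 CPM, condition held 61.1% for CGN and 47.5% for OCLN, against 22.5% over all genes tested. It held 2.78% for CLDN7 and 6.89% for CLDN1, the lowest of the 9. Number held 77.5% for CLDN7, 76.5% for F11R, 73.2% for TJP1, 72.6% for CLDN1 and 59.7% for CLDN12, against 47.2% over all genes. MARVELD2 had its largest share, 55.2%, in the remainder, that is, in neither condition nor number. These terms differ in degrees of freedom, the remainder having the most, so shares of different terms do not compare as amounts of effect.

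**Figure D3:**
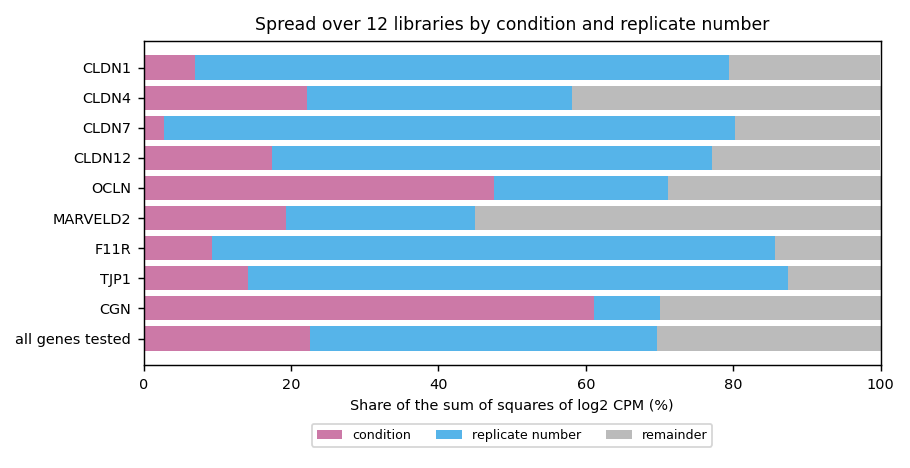
Share of the sum of squares of log2 CPM over 12 libraries, in percent, that lay between conditions, between replicate numbers and in the remainder, for each member and summed over all genes tested. Condition holds 61.1% for CGN and 2.78% for CLDN7.

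Per kilobase of annotated exon (GENCODE exons on GRCh38, not the hg19 annotation of the counts), the levels spanned a wide range. CLDN1 averaged 254 CPM per kilobase over the 12 libraries (131 to 367), CLDN4 111 (82.9 to 156) and F11R 60.0 (54.7 to 69.6). CLDN7 averaged 19.4 CPM per kilobase (11.1 to 29.2), CLDN12 11.5 (9.22 to 13.7), TJP1 9.96 (7.31 to 12.4) and CGN 9.93 (6.64 to 13.5). MARVELD2, at 3.31 (2.87 to 4.03), and OCLN, at 2.82 (2.14 to 3.76), were lowest. Neighbours in this order overlapped in range, except CLDN4 over F11R, F11R over CLDN7 and CGN over MARVELD2.

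Other genes of the junction were described by list. Without the block, edgeR called no gene of any list in any of the 6 comparisons. With it, no gene was called among the other claudins (10 of 19 tested), other membrane proteins (9 of 12), other scaffolds (23 of 23), trafficking and cytoskeletal regulators (14 of 14), claudin-associated surface proteins with the matriptase cascade (8 of 8) and adherens junction genes (12 of 12). Of the 76 genes tested in these lists, 21.1% had an unadjusted p under 0.05 in the block fit for stiff-to-soft against soft-to-soft, where 10.2% of all genes did. The share was 22.4% for LPA-to-FAKi against soft-to-soft (16.6% of all genes) and 13.2% when stiff-to-soft was set against LPA-to-soft (9.42% of all genes). It was 10.5% for learned against not learned (9.94%), 7.89% for LPA-to-soft against soft-to-soft (7.97%) and 19.7% for LPA-to-FAKi against LPA-to-soft (22.3%). The lists were chosen with earlier results of these data known, and whether these shares differ from those of all genes was not tested. The other claudins with the highest mean CPM, not set per length, were CLDN23 (27.7 CPM), CLDN16 (7.7), CLDN3 (5.48) and CLDN15 (4.38). LSR, the angulin that brings tricellulin to tricellular contacts, stood at 204 CPM. EPCAM, which binds CLDN7, stood at 239 CPM and JUP (plakoglobin) at 905.

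For stiff-to-soft against soft-to-soft, 2 of the 10 other claudins were positive and 8 negative, with a median of -0.28 against -0.01 for all genes. Of the 8, CLDN6, CLDN8, CLDN17, CLDN22 and CLDN24 averaged 0.22 CPM or less. Those with more counts were CLDN3 at 0.89, CLDN9 at 0.47, CLDN15 at -0.02, CLDN16 at -0.07 and CLDN23 at -0.41, and none was called. All 9 tested activators of junction genes were negative in the same comparison, with a median of -0.38. Surface proteins and the matriptase cascade had 5 of 8 positive and a median of 0.20. In LPA-to-FAKi against soft-to-soft, medians were 0.015 for other claudins, 0.06 for other scaffolds and 0.00 for adherens junction genes, against 0.13 for the members.

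Of the transcription factor lists, SNAI2 and KLF5 were called in the block fit. SNAI2, the E-box repressor Slug, had 56.2, 26.2 and 52.8 CPM in stiff-to-soft libraries 1, 2 and 3, and 46, 26.1 and 49.9 CPM in LPA-to-FAKi. It had 74.4, 32.7 and 62.9 CPM in LPA-to-soft and 78.2, 47.7 and 83.6 CPM in soft-to-soft. Library 2 was lowest in every condition, and within each number soft-to-soft was highest. SNAI2 fell by 0.67 ± 0.089 when stiff-to-soft was set against soft-to-soft (adjusted p = 0.012 with the block, 1 without it) and by 0.79 ± 0.089 in LPA-to-FAKi against soft-to-soft (adjusted p = 0.0111 with the block, 0.999 without it). For numbers 1, 2 and 3 the differences were -0.48, -0.87 and -0.66 with stiff-to-soft, and with LPA-to-FAKi they were -0.77, -0.87 and -0.75. In LPA-to-FAKi against LPA-to-soft SNAI2 differed by -0.46 ± 0.089 in the block fit (adjusted p = 0.0752). No other of the 6 repressors tested was called, nor any of the 9 activators apart from KLF5.

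KLF5, an epithelial activator, had 190, 102 and 129 CPM in stiff-to-soft libraries 1, 2 and 3, 225, 138 and 171 CPM in LPA-to-FAKi, 249, 133 and 157 CPM in LPA-to-soft and 293, 140 and 188 CPM in soft-to-soft. Within each number the stiff-to-soft library had the least and the soft-to-soft library the most. KLF5 fell by 0.54 ± 0.07 when stiff-to-soft was set against soft-to-soft (adjusted p = 0.012 with the block, 1 without it), with -0.62, -0.46 and -0.54 by number. These calls were lost without some libraries. In the block fit without soft-to-soft libraries 1 and 2, SNAI2 gave -0.68 with stiff-to-soft (adjusted p = 0.206) and -0.81 with LPA-to-FAKi (adjusted p = 0.0944), and KLF5 gave -0.56 (adjusted p = 0.215). Without soft-to-soft library 3 the adjusted p was 0.0684 and 0.0748 for SNAI2 in these comparisons and 0.0677 for KLF5. The stiff-to-soft calls were also lost without stiff-to-soft library 2 (0.0875 for SNAI2, 0.0761 for KLF5) or library 3 (0.0968 and 0.0918). Of the squamous markers, KRT17 and KRT14 (2 of 10) were also called lower for stiff-to-soft against soft-to-soft by the block fit, at -0.75 ± 0.111 (adjusted p = 0.0185) and -1.68 ± 0.322 (adjusted p = 0.048). KRT8 (0.51), KRT18 (0.37), CDH1 (0.30) and EPCAM (0.26) had positive differences and were not called. The other squamous markers, KRT5, KRT6A, SFN and TP63, had negative differences and were not called. Without the block, 4 of the 10 markers were positive and 6 negative, with a median of -0.35. Their part in the values of SNAI2, KLF5, OCLN and CGN was not tested. Members' block differences from soft-to-soft follow, first for stiff-to-soft and then for LPA-to-FAKi. OCLN, whose windows hold 3 of the E-box matches shown above, had 0.45 and 0.41. CLDN7, with 5 in 1 of its 2 windows, had 0.08 and 0.16. TJP1, with 1 match in a window not shown, had 0.18 and 0.24. Among members with 0 matches, CGN had 0.36 and 0.52, CLDN1 0.06 and -0.12, and CLDN4 -0.295 and -0.05. CLDN12 had 0.135 and 0.10, and MARVELD2 had 0.02 and 0.16, also with 0 matches. None of these members was called by edgeR in either comparison. Whether SNAI2 acts on any of these genes was not tested.

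**Figure D4:**
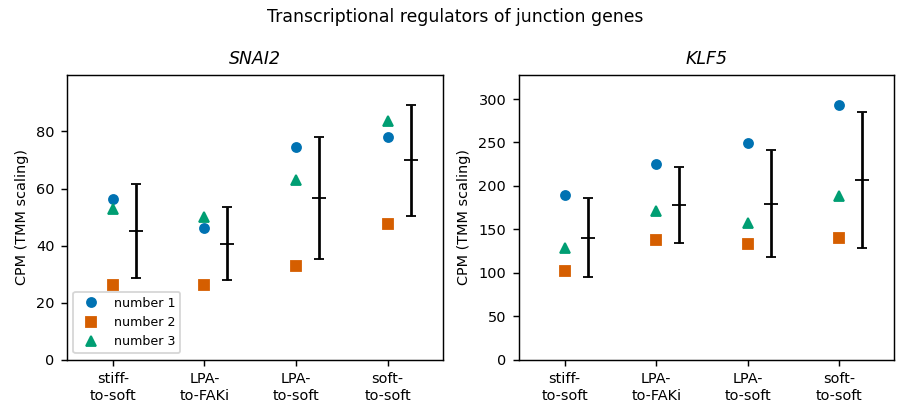
Level of SNAI2 and KLF5 in the 12 libraries, in CPM after TMM scaling on linear axes from 0, by condition, with symbols for replicate numbers and bars for the mean ± SD of 3 libraries. Within each number soft-to-soft is the highest for both genes, and the conditions overlap where numbers are pooled.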

How the data were processed

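Per the submitters' processing notes, cutadapt, FastQC, STAR, HTSeq and DESeq2 were used with the genome build hg19. Their versions, settings and annotation are not stated in those notes. The authors deposited whole-number read counts per gene symbol, from libraries made with a stranded kit per the labels' protocols, and normalized log2 values, which entered no test. Of the symbols, 5880 had no counts, 28 (0.178% of counts) had been turned into dates, and 2 stood on 4 lines. No pair of libraries was identical (0 pairs).

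The tests on counts used edgeR 4.0.16 (limma 3.58.1, R 4.3.3), with its quasi-likelihood F test, TMM scaling, low-count filter by condition and 1 model of the 4 conditions over 12 libraries, with a model of 2 classes for learned against not learned. Benjamini-Hochberg adjustment ran over all 15437 genes, and a gene was called under 0.05. Log2 CPM used a prior count of 2. Replicate number was added as a block beside this. With condition means removed, r between same-numbered libraries was 0.312 to 0.659 (18 pairs), and r between differently numbered ones was -0.517 to 0.0372 (36 pairs). By the threshold of 0.1 the numbers, which come from the sample titles, pair the samples. Alternatives were DESeq2 1.42.0, relative log expression factors, no low-count filter, each library left out, both soft-to-soft libraries with few even low counts left out, and the counts of the other 10 halved. The edgeR and DESeq2 fits were run on simulated counts with known changes larger than any difference of a member here. The share of false calls was held to a limit for the edgeR fits only. All members were named. From the other lists, genes called were named, with some of the most abundant ones. Some listed genes are not reported here. The alternatives for SNAI2 and KLF5 were chosen after seeing the data. The members and lists were chosen with earlier results of these data known. Depth limits low genes most, and standard errors cover the spread between these samples.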

Additional observations from a re-analysis of the deposited data

How the results depend on the processing

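The 9 members gave 54 differences over the 6 comparisons, and these were recomputed 1782 times. A member was called in 4 of the recomputed values, each time CGN. The count of members called for LPA-to-FAKi against soft-to-soft was 1 under DESeq2 with the replicate block and ran from 0 to 1 with a library left out (without LPA-to-FAKi replicate 3 in the block fit, CGN 0.67 ± 0.131, adjusted p = 0.0402, with 1.34% of genes called). For LPA-to-FAKi against LPA-to-soft it was likewise 1 under DESeq2 with the block and ran from 0 to 1 (without soft-to-soft replicate 2, CGN 0.39 ± 0.092, adjusted p = 0.0466, with 4.05% of genes called). The replicate block in edgeR left every member count at 0. Over all 15437 genes edgeR called 0 without the block in each comparison; with it, against soft-to-soft, it called 90 with stiff-to-soft and 87 with LPA-to-FAKi, and DESeq2 with the block called 456 of 13940 and 704 of 15137. The sign differed from that of the reported value in 143 recomputed values. In 12 of these the new or the reported difference was larger than its SE, and none of the 12 was called. Without both soft-to-soft libraries with few even low counts, CLDN1 for stiff-to-soft against soft-to-soft was -0.53. With the block CLDN12 was then -0.038 in stiff-to-soft and -0.025 in LPA-to-soft, each against soft-to-soft. With a library left out, stiff-to-soft against soft-to-soft ran from -0.33 to 0.36 for CLDN1, from -0.30 to 0.41 for CLDN7 and from -0.11 to 0.15 for MARVELD2. Under the same alternatives CLDN4 in LPA-to-FAKi against soft-to-soft ran from -0.31 to 0.15, CLDN7 and TJP1 in stiff-to-soft against LPA-to-soft from -0.27 to 0.23 and from -0.092 to 0.18, and CLDN7 in learned against not learned from -0.18 to 0.11. The causes were not tested. The count of members called by number was 5, and 4 to 6 with a library left out; it was 6 with DESeq2 and 4 without both soft-to-soft libraries with few even low counts. Halving the counts of 10 libraries changed no member call.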
